A study of Drosophila melanogaster with 4 samples.

Results

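The 9 genes described here, twi, sna, Mef2, fog, T48, htl, stumps, ths and pyr, mark the mesoderm of the Drosophila embryo or take part in its folding and spreading at gastrulation. They were chosen by symbol, as known genes of this process, though with earlier results of these data known. All 9 were among the 17807 genes of the raw count tables and the 7367 genes of the authors' normalized table. Of the 2453 genes with separate parental values, fog, htl and stumps were members of the group.

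Dorsal protein, a maternal factor that enters nuclei on the ventral side, switches on twi and sna, whose products define the future mesoderm. Ventral cells then constrict at their apical side under the secreted protein Fog and the membrane protein T48, and the sheet folds inward. The internalised cells spread over the ectoderm by fibroblast growth factor (FGF) signalling, in which ths and pyr encode the ligands, htl the receptor and stumps its adaptor, while Mef2 encodes a transcription factor of later muscle differentiation.

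Single embryos up to 3 h old and unfertilized eggs were profiled by CEL-Seq2, which tags each captured polyadenylated RNA with a unique molecular identifier (UMI). Mothers were virgin females of the inbred line DGRP_737, and the embryos' fathers were males of DGRP_352, so every embryo is a hybrid of the same cross. The parents were put together 3 to 4 days after they emerged as adults and were kept at 25 °C, 60% humidity and 12 h of light a day. The eggs have no paternal genome and served as the background. The study ordered 245 embryos and 8 eggs by their transcriptomes from early to late, over 4 libraries with 71, 53, 66 and 55 embryos and 3, 1, 1 and 3 eggs. Each embryo has its own name, in which the first digit is 1, 2 or 3, and the labels used here do not state what that digit means. Digit 1 was borne by 74 embryos between ranks 1 and 244 of the order, digit 2 by 99 between ranks 63 and 239, and digit 3 by 72 between ranks 144 and 245.

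Total UMIs per individual of the order lay between 163287 and 2069031, with a median of 738129. They were lower late than early, with medians of 568460 in the last 61 embryos and 907317 in the first 61. Levels are therefore given as UMIs per 1000000 UMIs of the individual (CPM), which compare one gene between individuals and not one gene with another. The largest count of any of the 9 genes was 1311, for twi, against a ceiling of 4096 that a 6-base UMI allows. Whole embryos were measured, so more cells expressing a gene and more RNA per cell cannot be told apart. Because the order was itself made from these transcriptomes, changes along it are described without p-values.

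Of the 9 genes, 6 were near the level of the unfertilized eggs at the start of the order and far above it at the end. Twi, sna, htl, stumps, ths and pyr each had Spearman's rho of CPM with rank of at least 0.5, the threshold for a rising gene, against 21.5% of all 7191 genes with a mean of at least 1 UMI. Their rho was 0.84, 0.90, 0.75, 0.80, 0.79 and 0.78 in that order. No member had a rho of -0.5 or less, against 40.0% of all genes. In each of the 6, all 61 of the last 61 embryos lay above the highest egg of the order and above every one of the first 61. The share of all genes that separate in this way was not computed, here or for the single genes below. The separation is therefore not given as particular to these genes. Fog, T48 and Mef2 had a different course, with RNA in eggs, a minimum in mid-order and a later return, and rho of -0.39, -0.09 and -0.12.

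**Figure D1:**
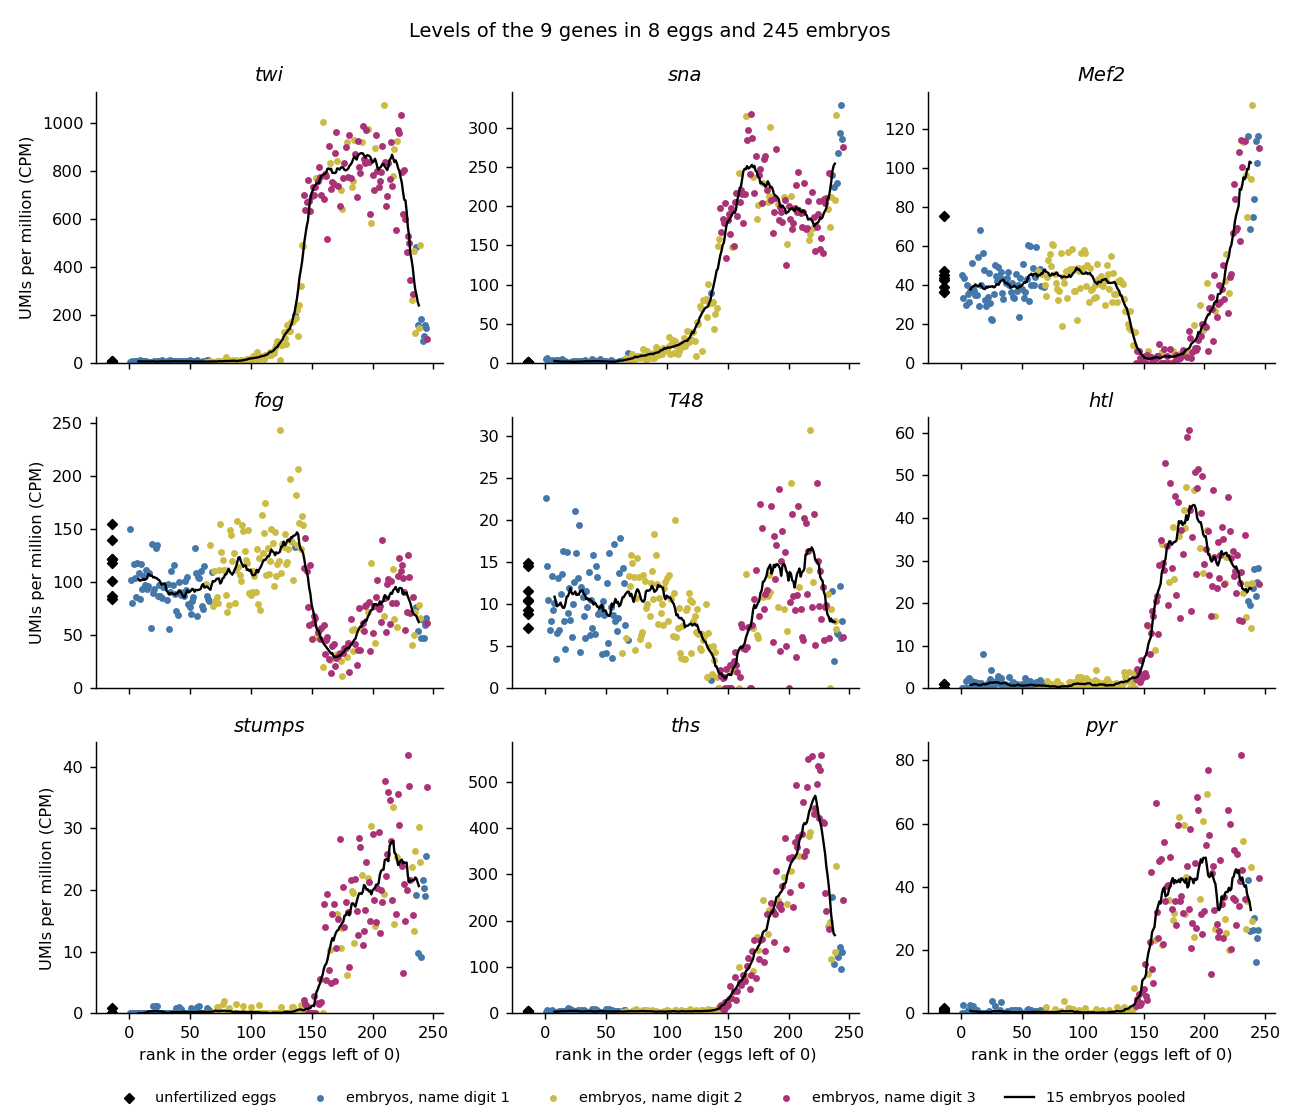
Level of each gene in CPM against rank in the order, with 1 point per embryo coloured by the first digit of its name, the 8 unfertilized eggs as diamonds left of 0, and the pooled level of 15 successive embryos as a line. The 6 rising genes stay near 0 in the first 61 embryos, while Mef2, fog and T48 start at egg levels, pass a minimum and return.

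Twi (FBgn0003900, 2R, 22985374 to 23048325, + strand, BDGP6.54) encodes the basic helix-loop-helix activator of mesodermal genes. It had 1.47 to 9.05 CPM in the 8 eggs, with a median of 4.84, and 0 to 13.7 CPM with a median of 6.09 in the first 61 embryos. The median was 12.3 CPM in the next 61 embryos and 697 CPM in the following 62. In the last 61 embryos twi ran from 92.7 to 1073 CPM, with a median of 765. These ranges did not overlap with those of the first 61 embryos, and the pooled level of the last 61 was 103 times that of the first 61.

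The pooled level of 15 successive embryos was largest for twi at rank 191, with 873 CPM, and stood at 835 CPM at rank 218. It was 239 CPM in the last 15 embryos, 0.358 times the pooled level of the last 61. Of these 15 embryos, 7 bear the digit 1 and had a median of 157 CPM. The other 8, with digits 2 or 3, had a median of 274 CPM and a range of 98.0 to 490 CPM, so both kinds were low beside the median of 765 CPM.

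Sna (FBgn0003448, 2L, 15476593 to 15478260, − strand) encodes a zinc-finger repressor that keeps ectodermal genes off in the mesoderm. It had 0 to 1.62 CPM in eggs, with a median of 0.888, and 0 to 6.63 CPM with a median of 1.88 in the first 61 embryos. Its median was 12.1 CPM in the next 61, 185 CPM in the following 62 and 199 CPM in the last 61, where it ranged from 125 to 329 CPM. The last 61 did not overlap with the first 61, and their pooled level was 106 times higher.

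Unlike twi, sna was not low at the end of the order. Its 15-embryo level was 245 CPM at rank 173, 184 CPM at rank 218 and 254 CPM at rank 238, the largest of all windows, where twi had 239 CPM. The 7 late digit 1 embryos had a median of 267 CPM and the other late embryos a median of 194 CPM.

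Mef2 (FBgn0011656, 2R, 9913496 to 9958858, − strand), a MADS-box factor of muscle differentiation, was present from the start. It had 36.2 to 75.5 CPM in eggs, with a median of 43.1, and 22.2 to 68.3 CPM with a median of 40.1 in the first 61 embryos. The median was 44.3 CPM in the next 61 and 5.16 CPM in the following 62, of which 13 had no UMI of Mef2. In the last 61 it spanned 2.59 to 132 CPM, with a median of 40.3, so this group overlapped with eggs and early embryos.

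The course of Mef2 was thus a fall and a later return. The 15-embryo level was 48.9 CPM at rank 95, 2.08 CPM at rank 154 and 103 CPM at rank 237. The last 15 embryos were at 68.6 to 132 CPM, above all of the first 61 embryos.

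Fog (FBgn0000719, X, 22824317 to 22855194, − strand) encodes the secreted ligand that starts apical constriction through a G-protein-coupled receptor. Its eggs had 83.8 to 155 CPM with a median of 119, and the first 61 embryos 55.4 to 150 CPM with a median of 94.9. Medians were 111 CPM in the next 61, 59.8 CPM in the following 62 and 72.0 CPM in the last 61, which spanned 22.0 to 139 CPM. All groups overlapped. The 15-embryo level was 147 CPM at rank 138, 29.1 CPM at rank 170 and 95.4 CPM at rank 219.

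T48 (FBgn0004359, 3R, 26881734 to 26910997, + strand) encodes a membrane protein that recruits RhoGEF2 to the apical side. It had 7.19 to 14.9 CPM in eggs, with a median of 10.4, and 3.41 to 22.7 CPM with a median of 9.72 in the first 61 embryos. The median was 10.2 CPM in the next 61, 4.86 CPM in the following 62 and 10.2 CPM in the last 61, which spanned 0 to 30.7 CPM. The 15-embryo level was 12.3 CPM at rank 93, 1.14 CPM at rank 148 and 16.8 CPM at rank 219. T48 was counted by at most 28 UMIs in an embryo, so single embryos are imprecise and the groups overlapped.

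The FGF receptor gene htl (FBgn0010389, 3R, 18045216 to 18052984, − strand) had no UMI in 6 of 8 eggs and at most 0.967 CPM in the other 2. It had 0 to 8.09 CPM with a median of 0.835 in the first 61 embryos. The median was 0 CPM in the next 61, 8.45 CPM in the following 62 and 28.2 CPM in the last 61, which spanned 14.1 to 60.6 CPM without overlap with the first 61. The pooled ratio of the last to the first 61 was 36.5.

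Stumps (FBgn0020299, 3R, 14577217 to 14608079, + strand), the adaptor that couples the FGF receptors to intracellular signalling, had 1 UMI in 1 of 8 eggs and 10 UMIs over the first 61 embryos together. Its highest early value was 1.21 CPM. The median was 0 CPM in the next 61 embryos, 1.46 CPM in the following 62 and 21.6 CPM in the last 61, which spanned 6.49 to 41.9 CPM. The groups did not overlap, and the pooled ratio of the last to the first 61 was 124.

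The ligand gene ths (FBgn0033652, 2R, 11756817 to 11814424, + strand) had 0 to 4.42 CPM in eggs, with a median of 2.74, and 0 to 11.9 CPM with a median of 3.74 in the first 61 embryos. Its median was 3.03 CPM in the next 61, 33.6 CPM in the following 62 and 294 CPM in the last 61, which spanned 96.5 to 557 CPM. The last 61 were 75.1 times the first 61 in pooled level, without overlap. Like twi, ths was lower in the final embryos, with 470 CPM in the window at rank 222 and 169 CPM in the last 15 embryos. The 7 late digit 1 embryos had a median of 127 CPM, and the other 8 of the last 15 a median of 193 CPM.

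The second ligand gene, pyr (FBgn0033649, 2R, 11712263 to 11726345, + strand), had 0 to 1.62 CPM in eggs and 0 to 4.03 CPM in the first 61 embryos, with medians of 0.593 and 0 CPM. The median was 0 CPM in the next 61, 10.9 CPM in the following 62 and 35.7 CPM in the last 61, which spanned 12.4 to 81.6 CPM. The last 61 did not overlap with the first 61 and were 82.5 times higher in pooled level. From rank 173 to rank 218 the 15-embryo level of pyr stayed between 38.4 and 43.7 CPM at the 4 window centres 173, 188, 203 and 218. Over the same 4 centres that of ths went up to 443 CPM at rank 218, against 136 CPM at rank 173.

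Annotated overlaps limit 5 of these values, and the sources do not state whether counting used the strand. The annotated span of twi overlaps with CG9896, CG9897, CG42741 and asRNA:CR42742, and that of ths with CG13193, CG42493 and Ir48c. Fog overlaps with CG42346 and mir-2491, T48 with Ets97D and stumps with lncRNA:CR46153. Of these, asRNA:CR42742, CG13193, CG42493 and mir-2491 lie on the same strand as the member, where use of the strand would not separate them.

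Onset was taken as the first window of 15 embryos whose pooled level reached 50% of the gene's largest window. Twi and sna came first, both at rank 143, with 143 to 160 and 141 to 149 over the 4 libraries. Pyr followed at rank 157 (libraries 156 to 164), htl at 161 (157 to 171), stumps at 173 (163 to 175) and ths at 189 (182 to 195). Sna and pyr did not overlap over libraries, and neither did ths with any other of the 6. Twi overlapped with pyr and htl through the 160 of library 4, and the neighbours pyr and htl, and htl and stumps, overlapped. At 25% of the largest window the median onset of the 6 genes was 153.5, against 159 at 50%, and sna, at 129, came before twi, at 137. Pyr, htl, stumps and ths were then at 152, 155, 160 and 171. Onset by this rule is relative to a gene's own largest window and is not the first rise. The 15-embryo level of ths was already 59.3 CPM at rank 158, against 4.41 CPM at rank 128.

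For fog and T48 RNA already in the first embryos met the onset rule at once, and for Mef2 the rule gave rank 219 over all embryos but ranks 14 to 63 within libraries, so it was not used for these 3. The midpoint between the lowest window and the largest window after it, a measure chosen after their course was seen, was at rank 171 for T48 (libraries 166 to 184), 194 for fog (190 to 200) and 219 for Mef2 (210 to 217). These ranges did not overlap. The range of T48 overlapped with the onset ranges of htl, stumps and ths, and that of fog with the onset range of ths.

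**Figure D2:**
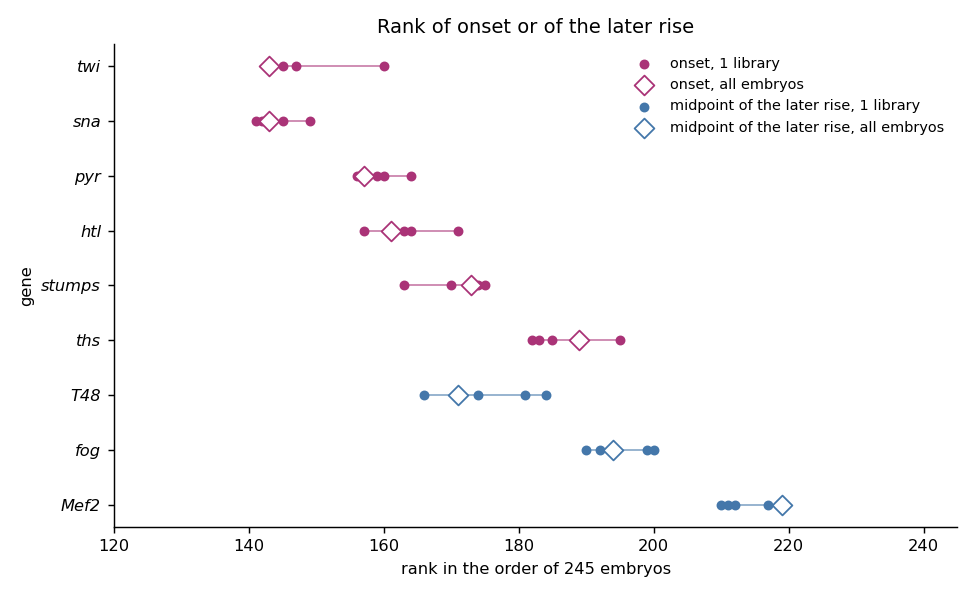
Rank at which each gene reached 50% of its largest window (twi, sna, pyr, htl, stumps, ths), or the midpoint of its later return (T48, fog, Mef2), for all embryos as open diamonds and for each of the 4 libraries as points joined by a line. Twi and sna stand at rank 143, ths at rank 189 and Mef2 at rank 219.

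The 6 rising genes, which include the ligand genes ths and pyr, had a median onset of 159. The median was 146 for 9 genes of the ectoderm and dorsal side (sog, vnd, brk, ind, sim, zen, tld, tup and pnr). By library the medians were 158, 164, 163.5 and 161.5 for the 6 rising genes, and 149, 146, 152 and 160 for the comparators. The median of the 6 was the later one in each library, by least in library 4. Ths and pyr were not among the genes taken as mesoderm markers, so these medians do not set mesoderm against ectoderm. Of the 6, twi and sna, at rank 143, lay before 146, and ths, at 189, was the latest. Onsets of the comparators ran from rank 128 for zen and 134 for tld to 169 for tup, 170 for ind, 197 for sim and 202 for pnr. The genes brk, vnd and sog, at ranks 144, 144 and 146, stood beside twi and sna.

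The genes whose levels followed twi most closely over the 245 embryos were spo, sog, CG13427, Sep5 and prd, with Spearman's rho between embryos of 0.927, 0.923, 0.913, 0.912 and 0.912 among 7191 genes. Sna stood at place 83 in this ranking, with a rho of 0.861. The closest genes to sna were CG15480, hkb, h, CG13465 and slp1, with rho of 0.911, 0.904, 0.901, 0.897 and 0.896, and twi stood at place 51. Of the other members, htl was the nearest to twi, at place 567 with a rho of 0.772, and pyr the nearest to sna, at place 461 with a rho of 0.777. All these genes share the same libraries and the same order, and the values are a description.

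The unfertilized eggs were compared with the first 61 embryos by edgeR's quasi-likelihood test, which asks how far the members' early RNA differs from that of the egg. Only fog, T48 and Mef2 had enough UMIs to be tested. None of the 3 was called at a Benjamini-Hochberg adjusted p under 0.05, against 2.81% of 6004 genes, and DESeq2 called none. Fog had a log2 fold change, eggs over embryos, of 0.21 ± 0.10 (SE) with an edgeR unadjusted p of 0.0392 and an adjusted p of 0.262, the 1 member of the 3 under 0.05 before adjustment. Fold changes of 0.09 ± 0.12 for Mef2 and 0.09 ± 0.20 for T48 were within about 1 SE of 0 on the log2 scale.

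The first digit was read from the embryo names and not from the order, though its meaning is not stated. EdgeR was fitted to all 3 digits with library as a covariate. The embryos tested were those of the order, which was made from the transcriptomes, so the tested groups depend on the transcriptomes too. The order leaves out 44, 18 and 43 embryos with digits 1, 2 and 3. P-values measure the spread between individual embryos. In embryos with digit 2, 7 of 8 members tested were higher than in embryos with digit 1, against 39.2% of 5985 genes, and none was lower, against 29.7%. T48 had too few UMIs for the filter. Digit 3 over digit 2 gave 6 members higher, against 43.1% of all genes, and 2 lower, fog and Mef2, against 44.2%.

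Twi had medians of 6.39, 34.0 and 763 CPM in digits 1, 2 and 3, with ranges of 0 to 480, 0 to 1073 and 98.0 to 1030 CPM, so that the ranges overlapped. Its log2 fold change was 3.24 ± 0.36 for digit 2 over 1 and 1.83 ± 0.31 for digit 3 over 2, with edgeR adjusted p of 1.28e-15 and 3.10e-08. Sna had medians of 2.11, 28.1 and 199.7 CPM, with log2 fold changes of 1.44 ± 0.34 and 1.59 ± 0.31 (edgeR adjusted p 6.57e-05 and 1.09e-06). Both transcription factor genes were called higher at both steps.

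Among the FGF genes, htl had medians of 1.01, 1.07 and 27.7 CPM and stumps 0, 0 and 16.6 CPM in digits 1, 2 and 3. Their log2 fold changes for digit 2 over 1 were 1.36 ± 0.35 and 1.25 ± 0.40, and for digit 3 over 2 they were 2.18 ± 0.30 and 2.32 ± 0.33, with edgeR adjusted p of at most 0.00324. The ligand gene ths had medians of 3.96, 5.00 and 218 CPM and log2 fold changes of 1.87 ± 0.39 and 2.12 ± 0.35. Pyr had medians of 0, 0 and 34.9 CPM and log2 fold changes of 1.68 ± 0.39 and 2.25 ± 0.32. Their edgeR adjusted p were at most 5.74e-05 at either step. Digits 2 and 1 had like medians in these 4 genes and differed in their means. For ths the mean was 54.3 CPM in digit 2 and 17.0 CPM in digit 1, and for pyr 8.84 and 3.04 CPM. The highest embryos had 439.6 and 252 CPM of ths, and 69.4 and 42.3 CPM of pyr.

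The size of the step to digit 2 depended on 7 late embryos, and several of its calls on embryos outside the order. Of the 74 embryos with digit 1, 61 were the first 61 of the order, while 7 stood at ranks 236 to 244. Without these 7, an alternative chosen after seeing the data, log2 fold changes of digit 2 over 1 were 5.00 for twi, 4.68 for sna, 2.96 for htl, 3.68 for stumps, 4.03 for ths and 3.93 for pyr. The calls held in that alternative, with 7 of 8 members higher. With the 82 embryos outside the order that had at least 50000 UMIs, twi, at 2.19, and fog, at 0.36, were called higher and sna, htl and ths, at 0.32, 0.28 and 0.35, and pyr, at -0.14, were not called, while stumps was called lower at -0.79 and Mef2 at -0.85. Without library 3 stumps was not called (0.68, edgeR adjusted p 0.198), and fog was not called without library 1 (0.16, edgeR adjusted p 0.148) or with DESeq2 (0.17, adjusted p 0.0520).

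Fog and Mef2 moved less. Fog had medians of 92.7, 111 and 61.9 CPM in digits 1, 2 and 3, with a log2 fold change of 0.28 ± 0.08 for digit 2 over 1 and -0.31 ± 0.08 for digit 3 over 2 (edgeR adjusted p 0.00127 and 0.000321). Mef2 had medians of 40.6, 40.3 and 7.45 CPM, with -0.18 ± 0.18 and -0.40 ± 0.19 (edgeR adjusted p 0.372 and 0.0464). The call of Mef2 at the second step was lost without library 1, 2 or 3, with edgeR adjusted p of 0.319, 0.0818 and 0.0884, and Mef2 was at 0.26 with the embryos outside the order. With scaling to total UMIs the median of all genes for digit 3 over 2 was -0.34 on the log2 scale, and -0.23 with DESeq2, against -0.01 with TMM scaling. With total UMI scaling fog was at -0.66 and Mef2 at -0.75.

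**Figure D3:**
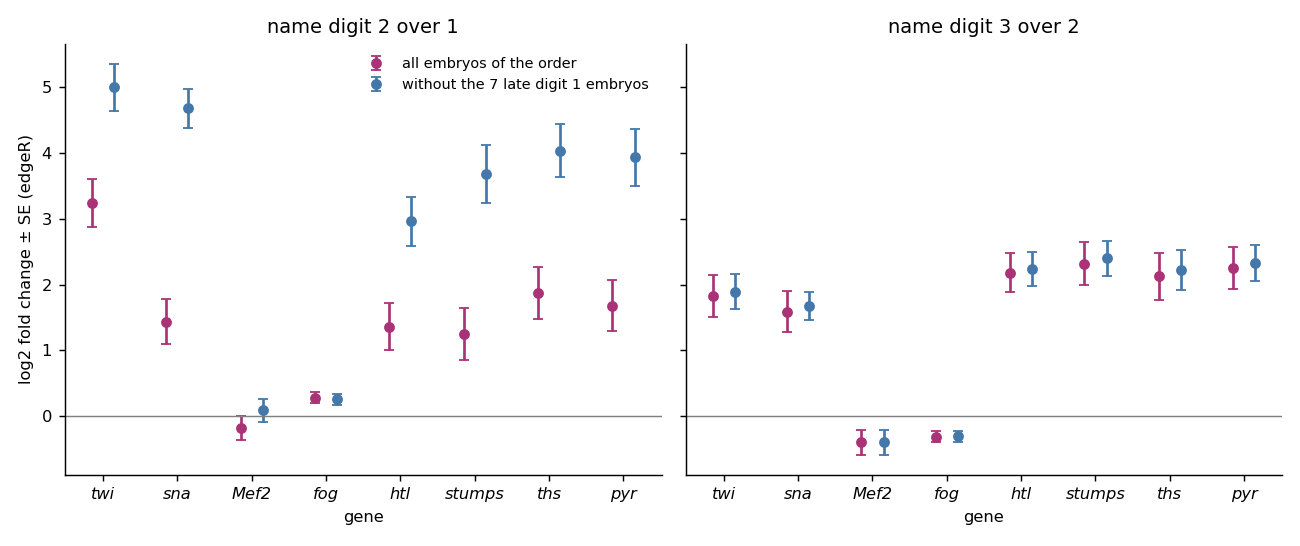
Log2 fold change of 8 genes with its standard error from edgeR, for name digit 2 over 1 at left and 3 over 2 at right, with all embryos of the order and without the 7 digit 1 embryos at ranks 236 to 244. Leaving out those 7 moves sna to 4.68 at left, against 1.44, and leaves the 6 rising genes at right between 1.67 and 2.40.

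Other genes of the process were taken from 3 lists. Among 13 genes described as downstream of twi or sna or as early mesodermal, 8 were rising along the order and 2, Mes2 and Mes4, falling. Over all 7191 genes 21.5% were rising and 40.0% falling. The median rho of this list was 0.73, against -0.31 over all genes. Ilp4, an insulin-like peptide gene, had the highest rho, 0.91, with a pooled 151 CPM in the last 61 embryos and 0.696 CPM in the first 61. WntD, a secreted inhibitor of Dorsal signalling, followed with 0.87 and Cyp310a1, a cytochrome P450 gene, with 0.82. The lowest were Mes4 at -0.52, Mes2 at -0.50 and the actin gene Act57B at 0.06. In edgeR's test, 11 of 12 were higher in digit 3 than in digit 2, against 43.1% of all genes, and 1, Mes2, was lower, against 44.2%. Tin and NetA, at 0.357 and 0.214 CPM in the first 61 embryos, passed the filter mainly through late embryos. Sty of the FGF list below did too, from 1.52 CPM. For such genes the higher call cannot be judged against the 43.1%. With total UMI scaling 8 were higher and 1 lower. In digit 2 over digit 1, 4 of 12 were higher (Mdr49, Cyp310a1, Ilp4 and the integrin gene if) and Mes2 and Mes4 were lower, which is no larger share than the 39.2% and 29.7% of all genes.

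Mes2, Mes4 and Act57B, with RNA in the first embryos, met the onset rule at once. In the other 10 genes of this list onset ran from rank 146 for Ilp4 and 149 for Mdr49, close to twi and sna, to 204 for tin, 221 for wntD and 233 for bap. Tin, the homeobox gene of the heart and visceral mesoderm, had 47.9 CPM in the last 61 embryos and 0.357 CPM in the first 61. Bap, a homeobox gene of the visceral mesoderm, had 17.9 and 0.0536 CPM. Both came after the 6 members.

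Of 14 genes of apical constriction, smog had a mean below 1 UMI. Of the other 13, 7 were rising, against 21.5% of all genes. Falling were 3, cta, RhoGEF2 and Gprk2, against 40.0% of all genes, and the median rho was 0.51. The highest rho were those of arm (0.92), which encodes beta-catenin, zip (0.88), the non-muscle myosin heavy chain, and shg (0.84), E-cadherin. Zip had 720 CPM in the last 61 embryos and 114 CPM in the first 61. The lowest were those of RhoGEF2 (-0.74), the exchange factor that activates Rho1, of the kinase gene Gprk2 (-0.55) and of cta (-0.54), the G-protein alpha subunit through which Fog acts. Cta had 34.8 CPM in the last 61 embryos and 189.6 CPM in the first 61. In edgeR's test 8 of 13 were higher in digit 3 than in digit 2, against 43.1% of all genes, and those 3 were lower, against 44.2%. With total UMI scaling 7 were higher and 5 lower, and Rok and cno turned lower, as cno did with DESeq2. In digit 2 over digit 1, 11 were higher, against 39.2% of all genes, and 1, RhoGEF2, was lower, against 29.7%, while DESeq2 called 6 higher and 1 lower.

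Of 14 further genes of the FGF pathway, btl, the tracheal FGF receptor gene, had a mean below 1 UMI. Of the other 13, 7 were rising, against 21.5% of all genes. Falling were 4, Dsor1, csw, rl and Raf, against 40.0% of all genes, and the median rho was 0.66. The highest were drk (0.93), an adaptor between receptor and Ras, sfl (0.87), an enzyme of heparan sulphate sulphation, and Ras85D (0.83). Lowest were Dsor1 (-0.69), the MAP kinase kinase, csw (-0.62), a tyrosine phosphatase, and rl (-0.58), the MAP kinase. Csw had 12.8 CPM in the last 61 embryos and 214 CPM in the first 61. In edgeR's test 7 of 12 were higher in digit 3 than in digit 2, against 43.1% of all genes, and 5 lower, the 4 named as falling and sgl, against 44.2%. In digit 2 over digit 1, 4 of 12 were higher, drk, Ras85D, Raf and sfl, and Sos and Dsor1 lower, against 39.2% and 29.7% of all genes. The feedback inhibitor gene sty had 117 CPM in the last 61 embryos and 1.52 CPM in the first 61, with onset at rank 213, after all 4 FGF members.

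Parental values separate RNA read from the fathers' and the mothers' alleles at known variants, and ask from which allele a gene's RNA came. In the 8 eggs the paternal value was 0 for fog, htl and stumps in all 8. In htl and stumps it was also 0 in all of the first 61 and the next 61 embryos, and the first paternal signal was at rank 152 for htl and 148 for stumps. Maternal values of htl were at most 2 and those of stumps at most 1 in the same embryos. Fog had maternal values with medians of 44.0 in the first 61 and 45.0 in the next 61 embryos, while its paternal value was 0 in 51 of the first 61 and at most 3 in the first 61 and next 61.

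In the last 61 embryos paternal and maternal values were compared over 2062 genes by a permutation test, two-sided, that flips the sign of each embryo's difference in 100000 resamples, and 70.1% of the genes had a lower paternal value at an adjusted p under 0.05. All 3 members were among them, but the X-linked fog gives no test here, because in 25 of these embryos the paternal share of other X-linked genes was no higher than in eggs. Over the 61 embryos fog had a mean paternal value of 5.49 ± 6.66 and a maternal one of 17.6 ± 11.8 (SD, n = 61), a paternal share of 23.8%, with the paternal value lower in 49 of 61 embryos. Stumps had 1.59 ± 2.37 and 3.66 ± 3.10, a share of 30.3%, and was lower in 43 of 61. Its p was the smallest these permutations can give, 1e-05, and its adjusted p 1.83e-05 by the permutation test.

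Htl had a mean paternal value of 3.61 ± 2.53 and a maternal one of 4.44 ± 2.57 (SD, n = 61), a share of 44.8%, lower in 33 embryos and higher in 21. Its permutation p was 0.0176 and its adjusted p 0.0232, which was 0.0752 without library 2, 0.133 without library 4 and 0.0541 without the 7 late digit 1 embryos. Over all genes the median share was 33.1%. Over the 1752 genes on chromosomes other than X, which is where htl and stumps lie, it was 35.8%, and 66.8% of them had a lower paternal value. Over the last 61 embryos stumps stood below that median and htl above it, and in library 2 stumps stood above it too. By library, shares were 16.5%, 24.1%, 27.9% and 26.2% for fog, 46.7%, 43.2%, 47.2% and 41.7% for htl, and 31.9%, 43.3%, 30.8% and 20.6% for stumps. RNA of maternal origin still present, unequal reading of the alleles and unequal transcription of them cannot be told apart in these values.

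**Figure D4:**
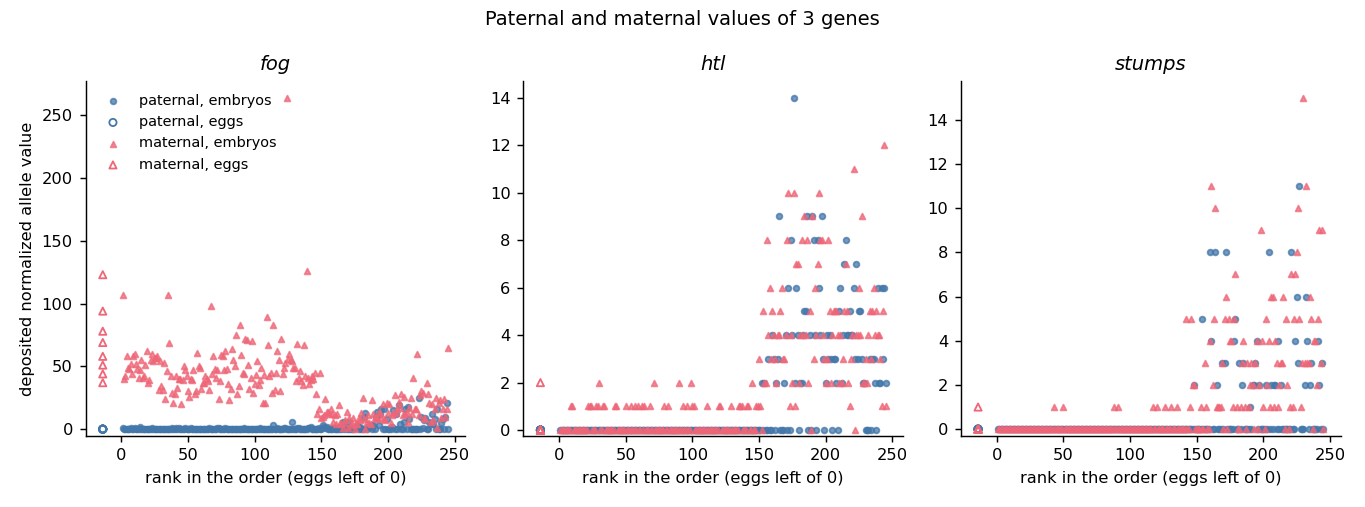
Deposited normalized paternal values as circles and maternal values as triangles for fog, htl and stumps against rank in the order, with eggs as open symbols left of 0. Paternal htl and stumps are 0 before ranks 152 and 148, while fog carries maternal values with a median of 44.0 from the start.

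Fog is X-linked, and a male carries a single X, from the mother. The sex of the embryos is not in the labels. Fog's paternal value was above 0 in 35 of the last 61 embryos and 0 in 26. The paternal share of 347 other X-linked genes was at or below 1.18%, the highest value of any egg, in 23 of the 26 embryos without paternal fog, and above it in 33 of the 35 embryos with paternal fog. Median fog levels were 71.7 CPM in the 36 late embryos above that egg value and 72.0 CPM in the 25 at or below it. The maternal fog value had medians of 11.5 in the 36 and 23 in the 25. The summed paternal share of fog was 41.2% in the 36 and 0.660% in the 25, so the 23.8% over all 61 averages unlike embryos. These embryos were divided by the data and not by a label, so the values are given without a test.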

How the data were processed

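RNA of single embryos and eggs was measured in 4 CEL-Seq2 libraries, treated as batches, with the individual as replicate. The deposited raw tables give a UMI count for each gene under each barcode. The authors also deposited normalized whole numbers, on a scale whose making is not given in the sources used here. They were taken as a score, and entries of 0.1 were read as 0. STARsolo is named by the deposited files. Per the submitters' processing notes, Trim Galore 0.6.10, SAMtools 1.17, Picard, GATK 4.4.0.0 and R 4.2.1 were used with the builds dm6 and BDGP6.

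Spike-ins, 92 in number, were left out of totals and tests. Counts were tested with edgeR 4.0.16 (quasi-likelihood, TMM, filterByExpr, library as covariate, Benjamini-Hochberg adjusted p under 0.05 over all genes) in R 4.3.3, with DESeq2 1.42.0 as an alternative. On simulated counts edgeR called at least 98% of 50 genes at each log2 fold change of -2, -1, 1 and 2 in each comparison, and at most 0.248% of unchanged genes. Few genes changed in the simulation, as many up as down, and all had the same spread parameter. In the data 4128 and 5224 of 5985 genes were called in the digit comparisons, so these rates may not hold there. Pooled levels are summed UMIs over summed totals in windows of 15 embryos, or 9 within a library. Gene positions are those of the BDGP6.54 annotation, release 115. No individual had counts identical to those of another. Individuals are not stated to be technical repeats. The 9 genes, the lists and the comparisons were chosen with earlier results of these data known, and the text names all 9 genes, for each list the 3 highest and 3 lowest rho, and for twi and sna the 5 genes nearest in level. Of the listed comparators, 1 is not reported here. The list gene phl was matched to Raf by its synonym. Alternatives were other scalings, filters, thresholds and windows, each library left out, and individuals outside the order, which needed at least 50000 UMIs. The meaning of the name digits was not used.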

Additional observations from a re-analysis of the deposited data

Results flagged for a closer look

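Of 27 groups of 4 to 10 values checked for a value far from the rest, 4 held one. Chance gives about 1 in 20 for independent values with a normal spread. The same 7 late digit 1 embryos and 8 eggs recur across genes, and some groups hold few UMIs. The 4 of 27 can therefore not be judged against that rate. Twi in the 7 late digit 1 embryos had a highest value of 480 CPM, with a median of 157 CPM. Ths in the same 7 embryos had a highest value of 252 CPM, with a median of 127 CPM. In the 8 eggs Mef2 had a highest value of 75.5 CPM, in an egg of library 4 with 21 UMIs of the gene, with a median of 43.1 CPM. Stumps had a value of 0.925 CPM in 1 egg, which is 1 UMI, and none in the other 7, a pattern that this rule always flags.

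The 105 embryos and 26 eggs that the authors' order does not hold entered none of the main comparisons, and signal of all 9 genes was found in those with at least 50000 UMIs. Of 82 such embryos, 78 had at least 3 UMIs and a level above the highest egg of the order for twi, and 78 did for sna. The same count was 57 for Mef2, 63 for htl, 61 for stumps, 76 for ths and 66 for pyr, against 4 for fog and 10 for T48. Their median levels were 66.4 CPM for twi, 98.4 CPM for sna, 109 CPM for ths and 88.2 CPM for Mef2. In 41 of them with the name digit 1, the medians were 66.7 CPM for twi and 115 CPM for Mef2, while the last 15 embryos of the order had medians of 160 CPM for twi and 102 CPM for Mef2.

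Of 21 eggs outside the order with at least 50000 UMIs, 12 had at least 3 UMIs and a level above the highest egg of the order for fog. The same count was 6 for twi and 7 for ths, and no egg met it for the other members. The highest of these eggs had 208 CPM of fog, 35.5 CPM of twi and 67.4 CPM of ths, against 155, 9.05 and 4.42 CPM in the highest egg of the order. T48 and Mef2 were lower in the 21 eggs, with medians of 0 and 12.5 CPM, against 10.4 and 43.1 CPM in the eggs of the order.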

How the results depend on the processing

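Direction and call of the 6 rising genes held in the digit 3 over 2 comparison under every alternative run. For eggs against the first 61 embryos the number of called genes, 169, was 271 with DESeq2, 4687 with the eggs outside the order, and 30 to 280 without 1 library, and it split into 54 higher and 115 lower, against 82 and 86 with total UMI scaling. With those eggs fog was called higher (0.56) and Mef2 turned lower (-0.62). Without 1 library the eggs' log2 fold change ranged from -0.018 to 0.21 for T48 and from -0.023 to 0.19 for Mef2. The number of rising genes was 1548 by CPM and 999 by the deposited normalized values, where fog had a rho of -0.60. The median onset of the 6 genes, 159, was 153.5 at 25% of the largest window. With embryos outside the order, digit 2 over 1 turned negative for stumps (-0.79) and pyr (-0.14), and digit 3 over 2 was 0.26 for Mef2. Without the 7 late digit 1 embryos Mef2 was at 0.087 for digit 2 over 1. Digit 2 over 1 had 2349 genes higher and 1779 lower, against 1789 and 1932 with total UMI scaling, 1675 and 2133 with DESeq2 and 1592 and 2073 without library 1. Digit 3 over 2 had 2578 higher and 2646 lower, against 1948 and 3305 with total UMI scaling and 4474 and 3047 without the filter. The causes were not tested. No paired analysis was possible because the labels give a single group of 4 libraries, apart from parental values, which were paired within embryos. Low counts limit T48, htl, stumps and pyr, and allele values cover 3 of the 9 genes.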
